A study of Mus musculus with 21 samples.

Results

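The genes described here build and run the lysosome and the autophagosome: the subunits and accessory proteins of the vacuolar proton pump, the cathepsins, the lysosomal membrane glycoproteins Lamp1 and Lamp2, and the numbered autophagy genes. They were chosen by symbol from the count table of hematopoietic stem cells (HSCs), as the symbols that begin with Atp6v, Atp6ap or Atg and a number, the cathepsins of a single letter, and the LAMP pair, with Ctsg left out because it encodes a protease of neutrophil granules. Of 21000 gene symbols, 64 matched, and 63 remained without Ctsg: 26 of the proton pump, 17 cathepsins, 18 autophagy genes and 2 LAMP genes. HSCs were sorted from the bone marrow of wild type C57BL/6 mice as CD150+CD48- cells of the Lineage-Sca-1+c-Kit+ fraction, and RNA was sequenced in 21 libraries, 3 in each of 7 groups. For C57BL/6 mice the authors' definition of HSCs also requires the absence of Flt3, except in stains that included EPCR. Mice aged 10 weeks were given phosphate-buffered saline (PBS) once or 3 times, or 5-fluorouracil (5-FU, a chemotherapy agent that kills dividing cells, after which HSCs proliferate) by intraperitoneal injection of 150 mg/kg once or 3 times with intervals of 21 days. PBS-treated HSCs were isolated on day 6, that is 5 days after the last administration, and 5-FU-treated HSCs on day 6 or on day 21, and the last group was of untreated mice aged 2 years, called old. For HSCs isolated on day 6 after 5-FU the sort gate was widened to c-Kit-dim cells and the Mac-1 antibody was left out, so that the gate and the drug cannot be told apart. These are bulk libraries of sorted cells, in which fewer cells of a type and less RNA per cell cannot be told apart either.

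Lysosomes digest proteins, lipids and organelles at acid pH. The acid is made by the vacuolar ATPase, in which a cytosolic V1 part hydrolyses ATP and turns a membrane-bound V0 part that carries protons inward, and the cathepsins are proteases that mostly need this acid to mature and to work. Autophagy brings cytoplasm to the lysosome: the Ulk1 complex with Atg13 and Atg101 starts it, a lipid kinase complex with Atg14 marks the site, Atg9a and the Atg2 proteins supply membrane lipid, and Atg7, Atg3, Atg10, Atg5, Atg12 and Atg16l1 attach ubiquitin-like proteins to the growing membrane, which Atg4 proteases trim. In HSCs, autophagy is known for clearing mitochondria and for maintaining quiescence. Many lysosomal genes are targets of the transcription factors Tfeb and Tfe3, which bind E-box sequences near gene starts.

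Library totals were between 22184885 and 38649033 counts, with a median of 26962256, and 3 counts, taken as the smallest signal of a library, were worth between 0.0776 and 0.135 CPM (counts scaled to a common library total). All levels are CPM after TMM normalization over all 21 libraries. Of the HSC markers, Kit was at 578.5 to 1391 CPM over the 21 libraries, Slamf1, which encodes CD150, at 37.6 to 62.2, and Procr at 14.98 to 32.9. Markers of other cells summed to less than Kit: the 13 monocyte and macrophage markers summed to 49.8 to 100.5 CPM, the 11 neutrophil markers to 14.7 to 127.8, the 5 megakaryocyte markers to 33.9 to 141.5, the 5 erythroid markers to 19.6 to 86.3, the 5 B cell markers to 29.3 to 57.3, the 5 markers of stroma and endothelium to 126.7 to 252.8, and the 4 T cell markers to 0 to 3.87. The sum for stroma and endothelium was above Slamf1 and above Procr, but it rested on few genes. On day 21 after 5-FU once it was 187.6 to 235 CPM, with 3 of the 5 genes under 1 CPM in every library and Lepr and Cdh5 at 0. Whether it came from other cells was not tested. Pairs of libraries of the same group differed by more than sampling noise (median chi-square per gene 4.07 to 10.5 over 21 pairs, where noise alone gives 0.455), so that each library was counted as a replicate. The labels give a replicate number and no separate animals for each library. The authors describe the data of each cell type as biological replicates from 3 independent experiments. The p-values measure the spread between these libraries, which may in part be technical.

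A property of the counts bears on these genes. Symbols with a single RefSeq transcript and those with several behaved differently with depth: among genes with a mean of at least 50 counts, 32 of 5405 genes with 1 transcript (0.592%) exceeded 1.5 counts per base of their longest transcript, against 1309 of 5939 genes with 2 or more transcripts (22%). The slope of log2 count on log2 library total, which is 1 for counts that follow depth, had a median of 0.716 over the first kind of gene and 0.945 over the second. Of the members, 27 with 1 transcript had a median slope of 0.58 and 22 with several had a median of 0.97. Most of the proton pump genes with counts (11 of 17) and most of the cathepsins (8 of 12) were of the first kind, and the part of depth in their differences was not tested. Levels are compared between genes only per kilobase of the longest transcript and only within each kind. The second kind is itself uneven: median counts per base were 0.530 over genes with 2 or more transcripts and 1.03 over those with 4 or more.

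**Figure D1:**
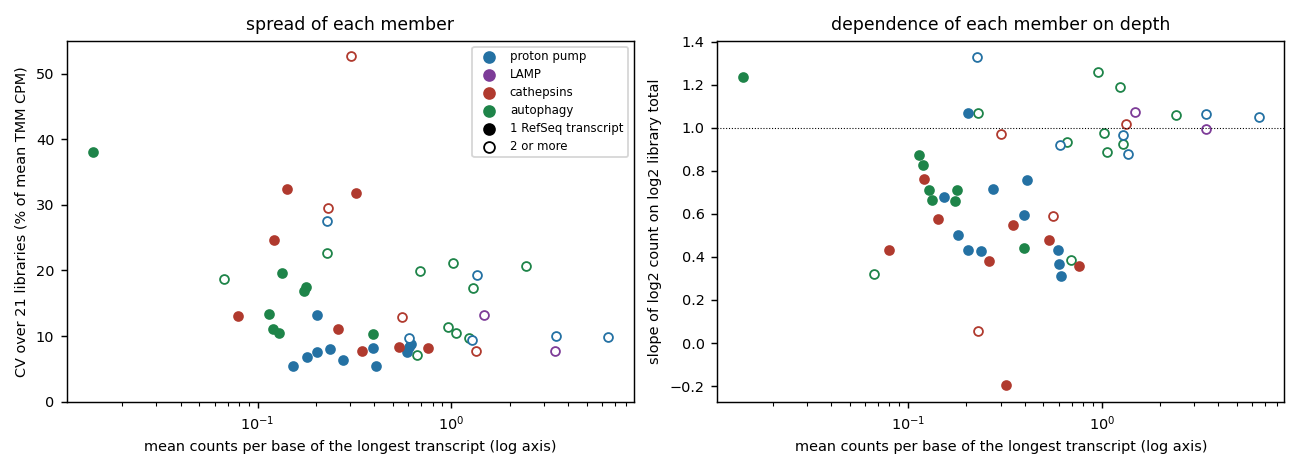
Each point is a member with a mean of at least 50 counts, placed on the log axis by its mean counts per base of the longest transcript. The left panel gives the coefficient of variation of TMM CPM over 21 libraries and the right panel the slope of log2 count on log2 library total. Filled points are genes with 1 RefSeq transcript, whose median slope was 0.58, and open points are genes with 2 or more, whose median was 0.97.

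Most of the family was expressed in HSCs. In PBS once HSCs, the most abundant of the genes with several transcripts was Atp6v0c, the proteolipid that forms the proton-carrying ring, at 204.5 ± 11.2 CPM per kb (SD, n = 3). It was followed by the accessory subunit Atp6ap1 at 114.3 ± 14.8, Lamp1 at 113.3 ± 9.99, Atg13 at 85.8 ± 7.46 and Atg7 at 51.4 ± 5.83 CPM per kb. Atp6v0c has 6 RefSeq transcripts, Atp6ap1 3, Lamp1 2, Atg13 7 and Atg7 5. The part of transcript number in this order was not tested. Atp6ap1 and Lamp1 did not differ beyond their spread, and nor did Atg7 and Atp6v0a1 (50.02 ± 12.1), an a subunit of the V0 part. Among genes with a single transcript, the aspartic protease cathepsin D led (Ctsd, 28.8 ± 0.917 CPM per kb), then Atp6v0b (22.3 ± 1.18), Atp6v1g1 (21.3 ± 1.32) and Atp6v1f (21.1 ± 1.53), whose ranges overlapped, and the carboxypeptidase cathepsin Z (Ctsz, 19.2 ± 1.18). An exon stretch holding 34.4% of the exonic bases of Ctsd is shared with the annotated gene Gm49369 on the same strand, so the level of Ctsd is uncertain.

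A further group of members was silent. Atp6ap1l, Atp6v1b1, Atp6v1e2, Ctsj, Ctsm, Ctsq and Ctsr had 0 counts in all 21 libraries, and Atp6v1g3 had at most 2. Of the pump isoforms known from kidney, osteoclast, neuron or testis, Atp6v0a4 reached 0.586 CPM, Atp6v0d2 0.282 and Atp6v1c2 0.889 in their highest library, whereas Atp6v1g2 was clearly present at 7.74 to 23.1 CPM. The osteoclast protease cathepsin K (Ctsk) stayed at or below 0.394 CPM. Atp6v0e2 had 0 counts in 4 of the groups in full and reached 2.19 CPM in its highest library, a PBS 3 times library whose fellows had 0.218 and 0.889.

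Promoters of members were searched for the E-box bound by Tfeb and Tfe3. RefSeq promoter sequences of GRCm38.p6, each of 250 bases before and 50 after a start, were at hand for 50 of the 63 members. The letters CACGTG, which read the same on both strands, occurred in promoters of 13 of these 50 genes (26%) and of 8.09% of all 27025 genes, and the longer TCACGTG, on either strand and always overlapping the first motif, in 10 of 50 (20%) and 4.29% of all genes. By family, 4 of 19 pump genes, 4 of 13 cathepsins, 4 of 16 autophagy genes and 1 of 2 LAMP genes held CACGTG. The forkhead core GTAAACA, searched on both strands, was found in 1 of 50 members and 4.05% of all genes. Promoters were at hand for 9 of the 12 members that passed a test in a comparison, and the E-box was found in Atg7, Atg14, Atg3 and Ctsf, of which Atg3 rose and the others fell. It was not found in these windows of Atg13, Atg2a, Atg4d, Atp6v0c and Ctss. In Atg14 it lies across the start. The 250 bases before the start are shown for Lamp1 and Atp6v1a, which carry the motif and did not pass the main edgeR test, and for Atg7, Atg3 and Ctsf. CACGTG is in capitals, to let the placement of the motif be compared between genes that passed the main test and genes that did not. They are Lamp1 at chr8:13158911-13159160 (plus strand, 4 copies), Atp6v1a at chr16:44139260-44139509 (minus strand), Atg7 at chr6:114670846-114671095 (plus strand), Atg3 at chr16:45158579-45158828 (plus strand, 2 copies) and Ctsf at chr19:4854915-4855164 (plus strand), each written 5′ to 3′. The RefSeq starts used for Atp6v1a, Atg7, Atg3 and Ctsf lie inside the GENCODE genes, and the windows of Atp6v1a and Atg7 lie wholly inside them. On its minus strand Atp6v1a begins at 44139705, close to its window. Atg7 begins at 114643097, far before its window, so the Atg7 motif shown is at an internal start.
Lamp1: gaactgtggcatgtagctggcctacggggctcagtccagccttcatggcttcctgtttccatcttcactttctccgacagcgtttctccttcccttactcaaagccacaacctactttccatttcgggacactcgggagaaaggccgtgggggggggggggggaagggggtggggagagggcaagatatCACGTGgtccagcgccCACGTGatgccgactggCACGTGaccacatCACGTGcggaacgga
Atp6v1a: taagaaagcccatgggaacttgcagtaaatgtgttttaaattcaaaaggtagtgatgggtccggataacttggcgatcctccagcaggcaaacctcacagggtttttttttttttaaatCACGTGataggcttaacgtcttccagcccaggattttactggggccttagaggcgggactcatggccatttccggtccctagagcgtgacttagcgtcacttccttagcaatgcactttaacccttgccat
Atg7: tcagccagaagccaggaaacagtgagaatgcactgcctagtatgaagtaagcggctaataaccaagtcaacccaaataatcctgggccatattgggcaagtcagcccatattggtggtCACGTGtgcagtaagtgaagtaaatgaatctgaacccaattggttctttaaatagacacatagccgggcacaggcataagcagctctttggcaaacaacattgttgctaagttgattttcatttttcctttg
Atg3: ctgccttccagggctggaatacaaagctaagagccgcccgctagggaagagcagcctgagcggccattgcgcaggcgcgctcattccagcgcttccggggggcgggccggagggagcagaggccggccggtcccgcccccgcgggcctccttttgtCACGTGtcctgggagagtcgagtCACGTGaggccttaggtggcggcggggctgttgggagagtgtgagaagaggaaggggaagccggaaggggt
Ctsf: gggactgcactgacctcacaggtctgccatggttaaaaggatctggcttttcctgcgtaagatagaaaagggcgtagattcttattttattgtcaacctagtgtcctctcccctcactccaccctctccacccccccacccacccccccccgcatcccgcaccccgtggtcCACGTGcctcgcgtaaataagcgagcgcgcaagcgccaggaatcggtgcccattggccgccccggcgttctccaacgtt
The first copy begins 61 bases before the start in Lamp1, 131 in Atp6v1a, 132 in Atg7, 94 in Atg3 and 79 in Ctsf. The motif is a description of these sequences, and binding was not measured.

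The levels were also summed over each family. The proton pump summed to 1649, 1540 and 1486 CPM in PBS once HSCs and to 1571, 1640 and 1596 on day 6 after 5-FU once, which overlap. Over all 21 libraries the pump stayed between 1486 and 1733 CPM, the cathepsins between 428.9 and 559.3, and the LAMP pair between 389.5 and 509.5. The cathepsins were at 480.0, 463.3 and 428.9 CPM after 5-FU 3 times on day 6, below every PBS 3 times library (492.7, 517.2 and 558.6). The autophagy genes summed to 1347, 1271 and 1236 CPM in PBS once HSCs, to 1056, 1126 and 1078 on day 6 after 5-FU once, and to 1422, 1529 and 1361 on day 21 after 5-FU once. On day 6 after 5-FU once every library was below every PBS once library, and on day 21 every library was above. After 5-FU 3 times, by contrast, the sums were 1175, 1212 and 1238 CPM, which overlapped with PBS 3 times (1259, 1196 and 1230). These sums are given without a test. They add genes of both transcript kinds, and abundant genes weigh most in them. The group mean of Atg13 was 212.4 CPM on day 6 and 391.5 on day 21 after 5-FU once. That of Atg7 was 200.3 CPM in PBS once HSCs and 122.7 on day 6 after 5-FU once. The median log2 fold change of the autophagy genes on day 21 after 5-FU once was 0.04, so the sums do not describe a change of the whole family.

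**Figure D2:**
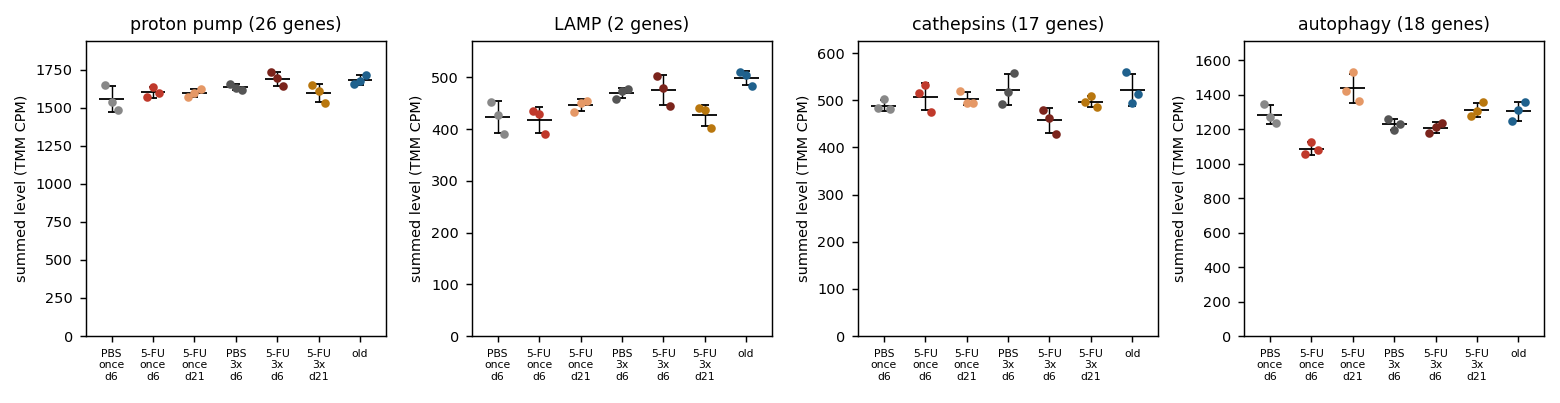
Summed level of each family in TMM CPM (axes start at 0) for each of 3 libraries in 7 groups, d6 and d21 standing for day 6 and day 21 and 3x for 3 administrations. Points are libraries, lines are means and bars are SD. The autophagy genes were lowest on day 6 after 5-FU once (1056 to 1126 CPM), and the pump stayed between 1486 and 1733 CPM throughout.

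To ask how a single 5-FU treatment altered these genes, 5-FU once was compared with PBS once on day 6. Of the autophagy genes 5 fell, the cathepsins Ctsf and Ctse fell, cathepsin S rose, and of the proton pump Atp6v0c alone passed the test. Of 49 members tested, 9 passed the threshold (edgeR quasi-likelihood test, Benjamini-Hochberg adjusted p under 0.05), 18.4% of those tested, while 22.2% of all 12759 genes tested did. The members as a whole were therefore not called more often than other genes. In all, 2 members rose and 7 fell, whereas 11.5% of all genes rose and 10.6% fell, that is 1470 genes up and 1357 down, or 1127 and 1623 without a normalization factor. By family, 5 of 18 autophagy genes, 2 of 12 cathepsins and 0 of 17 pump genes fell, and 1 cathepsin and 1 pump gene rose. The median log2 fold change was −0.09 in autophagy genes, −0.08 in cathepsins, 0.04 in pump genes and −0.04 in the LAMP pair, with a median of −0.001 over all genes tested. Of the LAMP pair, 1 had an unadjusted p under 0.05 in edgeR, and DESeq2 called 0.

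The autophagy genes that fell act at successive steps. Atg13, a partner of the Ulk1 kinase at the start (chr2:91674618-91710576, minus strand, GRCm38), stood at 337, 308 and 283 CPM in PBS once HSCs and at 203, 210 and 224 on day 6 after 5-FU once. The groups did not overlap, and the log2 fold change was −0.53 ± 0.08 (SE, adjusted p = 0.00614, edgeR). Atg14, which directs the lipid kinase to the site of assembly (chr14:47540893-47570649, minus strand), fell from 24.7, 26.3 and 26.1 CPM to 18.5, 16.8 and 17.3, a log2 fold change of −0.54 ± 0.08 (adjusted p = 0.00571, edgeR). Atg2a, a lipid transfer protein (chr19:6241668-6262335, plus strand), fell from 43.8, 46.7 and 41.5 CPM to 29.4, 29.3 and 30.8, a log2 fold change of −0.55 ± 0.08 (adjusted p = 0.00435, edgeR). In all of these the 3 treated libraries lay close together and under every control library. Such a lack of overlap was common: it held for 43.6% of all genes tested in this comparison. Of the 49 members tested, 7 lay above and 10 below every control library.

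Atg7, the activating enzyme of both conjugation systems (chr6:114643097-114860614, plus strand), fell most among the autophagy genes. Its level was 218, 175 and 208 CPM in PBS once HSCs and 119, 132 and 117 on day 6 after 5-FU once, a log2 fold change of −0.70 ± 0.10 (adjusted p = 0.00495, edgeR). Atg4d, a protease that trims the conjugated proteins (chr9:21265293-21277772, plus strand), went from 30.9, 22.4 and 26.9 CPM to 18.1, 19.9 and 20.4, a log2 fold change of −0.45 ± 0.13 (adjusted p = 0.0475, edgeR). This call is marginal: leaving out single libraries gave adjusted p of up to 0.128, and 19.3% of the exonic bases of Atg4d are shared with Kri1 on the opposite strand, whose reads cannot be told apart without strand. The other core conjugation genes did not pass the test. Atg5 was at 91.5, 98.95 and 83.5 CPM against 99.6, 83.9 and 106. Atg12 was at 22.03, 21.8 and 23.5 against 17.4, 18.2 and 21.3, lower without overlap. Atg16l1 was at 114, 99.6 and 92.2 against 92.8, 101 and 110. Atg3 was at 76.7, 72.8 and 68.9 against 79.3, 88.3 and 84.8, higher without overlap. Atg9a (114, 146 and 122.7 against 125, 138 and 122 CPM) and Atg101 (18.2, 17.4 and 18.03 against 19.8, 16.5 and 18.5) overlapped between the groups, and 32.6% of the exonic bases of Atg9a are shared with other annotated genes.

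Among the cathepsins, cathepsin S (Ctss, chr3:95526786-95556403, plus strand), a cysteine protease that trims the invariant chain during antigen presentation, rose. Its level was 11.9, 14.3 and 10.2 CPM in PBS once HSCs and 29.4, 34.5 and 24.6 on day 6 after 5-FU once, a log2 fold change of 1.29 ± 0.17 (adjusted p = 0.00357, edgeR), 2.44-fold. Because Ctss is abundant in macrophages, their markers are given beside it: all 13 summed to 67.2, 71.0 and 72.6 CPM at the lowest, median and highest PBS once library and to 56.2, 56.8 and 60.3 after 5-FU, thus lower. Csf1r was at 0, 0 and 0.301 CPM in PBS once HSCs and 0.625, 1.10 and 0 after 5-FU, Ccr2 and Fcgr1 were at or below 0.417 in both, and Ms4a7 was at 0 except for 1.39 CPM in a PBS once library. Cd68, a LAMP-like glycoprotein that is a macrophage marker, did not overlap and was higher, with 4.54, 4.89 and 5.25 CPM against 9.09, 8.01 and 7.43. Other markers moved as well: the neutrophil markers summed to a median of 93.4 CPM in PBS once HSCs and of 20.4 after 5-FU, the megakaryocyte markers to 117.6 and 40.5, and the erythroid markers to 24.2 and 64.8, all without overlap. The part of these in the results was not tested.

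Cathepsin F and cathepsin E fell. Ctsf, a cysteine protease (chr19:4855130-4860918, plus strand), was at 30.0, 29.1 and 28.7 CPM in PBS once HSCs and at 15.9, 11.7 and 13.3 after 5-FU, a log2 fold change of −1.09 ± 0.12 (adjusted p = 0.00238, edgeR). Ctse, an aspartic protease found in endosomes (chr1:131638306-131675505, plus strand), was at 9.68, 12 and 9.04 CPM and then at 7.005, 4.19 and 5.84, a log2 fold change of −0.84 ± 0.22 (adjusted p = 0.0343, edgeR), with an adjusted p of up to 0.104 when single libraries were left out. Cathepsins B, D and L did not pass the test. Cathepsin B (Ctsb) was at 57.9, 54.9 and 58.6 CPM against 57.0, 55.0 and 52.8, and cathepsin L (Ctsl) at 18.4, 19.0 and 16.1 against 16.9, 15.3 and 15.8. Ctsd was at 62.3, 59.1 and 62.6 CPM against 58.4, 55.2 and 56.0, without overlap. It passed when the transcript classes were fitted apart, a fit added after seeing the data (log2 fold change −0.13 ± 0.04, adjusted p = 0.049, edgeR). These 3 cathepsins have a single RefSeq transcript, and 26.8% of the exonic bases of Ctsl are shared with other annotated genes. Ctsa, a carboxypeptidase that protects other lysosomal enzymes, was at 147, 165 and 150 CPM against 159, 176 and 152. Ctsc, an activator of granule proteases, was at 61.9, 61.1 and 54.2 CPM against 74.0, 74.0 and 63.8, without overlap. Ctsh, an aminopeptidase, was at 14.9, 23.4 and 23.4 CPM against 28.1, 43.5 and 27.5, without overlap, and missed the threshold in edgeR (log2 fold change 0.70 ± 0.24, adjusted p = 0.0725) but not in DESeq2 (adjusted p = 0.0402).

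In the proton pump, Atp6v0c alone passed the test (chr17:24163866-24169702, minus strand). It was at 541, 543 and 492 CPM in PBS once HSCs and at 610, 660 and 606 after 5-FU, a log2 fold change of 0.26 ± 0.07 (adjusted p = 0.0291, edgeR), 1.20-fold. The annotation holds 2 copies, Atp6v0c-ps1 and Atp6v0c-ps2, with which reads could be shared, and every one of the fits that left out a library lost the call (adjusted p up to 0.0817). The catalytic subunit Atp6v1a (196, 193 and 170 CPM against 191, 198 and 202), the regulatory subunit Atp6v1h (101, 87.9 and 89.99 against 107, 117 and 96.5), Atp6v0d1 (16.0, 14.6 and 15.3 against 16.5, 15.5 and 14.9) and the prorenin receptor Atp6ap2 (31.5, 32.1 and 33.1 against 32.6, 28.0 and 29.1) did not pass. Atp6v0a1 was at 258.7, 158.2 and 207.7 CPM against 133.9, 134.0 and 177.9, which overlap, and its log2 fold change was −0.48 ± 0.19 (adjusted p = 0.119 in edgeR, 0.0461 in DESeq2). Lamp1 was at 274, 254 and 230 CPM against 276, 278 and 251.4, and Lamp2 at 178, 173 and 161 against 158, 150 and 138, the latter without overlap and with an adjusted p of 0.12 (edgeR).

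**Figure D3:**
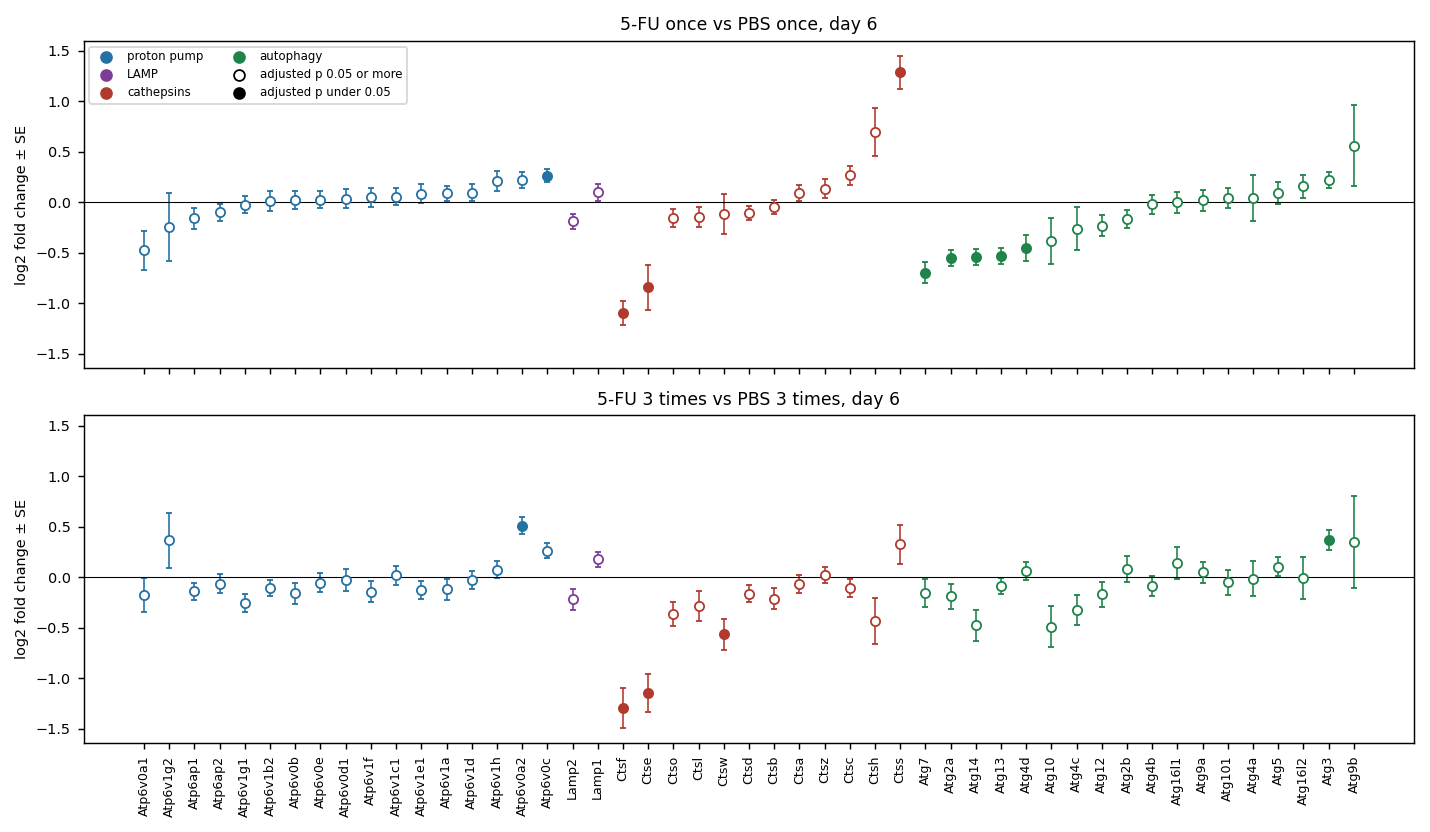
Log2 fold change of each tested member on day 6 after 5-FU once against PBS once (top) and after 5-FU 3 times against PBS 3 times (bottom), with bars of 1 SE from the edgeR fit of 3 against 3 libraries. Filled points passed an adjusted p of 0.05, 9 in the top panel and 5 in the bottom, with Ctsf and Ctse low in both, and Atp6v0e2, tested only after 3 administrations, is not drawn.

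After 3 administrations, 5 of 50 members tested passed the threshold (10%), against 18.1% of 12729 genes, and 2 rose and 3 fell, where 9.84% of all genes rose and 8.3% fell (1253 up and 1057 down, or 807 and 1462 without a normalization factor). The libraries after 5-FU held between 31358819 and 38649033 counts and those of PBS 3 times between 27023725 and 31724107. The neutrophil markers summed to a median of 57.3 CPM in PBS 3 times HSCs and of 23.9 after 5-FU 3 times, the megakaryocyte markers to 119.5 and 84.0, the erythroid markers to 22.6 and 43.7, and the B cell markers to 50.3 and 35.9. Their part in the results was not tested. The median log2 fold change was −0.14 over the 27 members with 1 RefSeq transcript and −0.07 over the 23 with several, against −0.02 and −0.01 over all genes of each kind. By family the medians were −0.25 in cathepsins, −0.09 in pump genes, −0.03 in autophagy genes and −0.02 in the LAMP pair, against −0.01 over all genes. Of the 50 members tested, 4 lay above and 12 below every control library, and 39.9% of all genes tested did not overlap.

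Ctsf and Ctse fell again. Ctsf was at 27.6, 28.8 and 26.9 CPM in PBS 3 times HSCs and 12.1, 14.2 and 7.88 after 5-FU 3 times, a log2 fold change of −1.29 ± 0.20 (adjusted p = 0.00775, edgeR), and Ctse at 12.1, 12.9 and 15.8 against 7.13, 4.86 and 6.504, a log2 fold change of −1.15 ± 0.19 (adjusted p = 0.00893, edgeR). The control groups of these and of the single administration are different libraries, so that the falls of Ctsf and Ctse were measured in separate sets of 6. Ctsw, a protease of cytotoxic lymphocytes (chr19:5465043-5468507, minus strand), went from 8.90, 8.02 and 9.14 CPM to 6.398, 5.51 and 5.74, a log2 fold change of −0.57 ± 0.15 (adjusted p = 0.0414, edgeR). In PBS once HSCs Ctsw was at 6.18, 5.72 and 4.78 CPM, which overlapped with the 5-FU 3 times libraries, and PBS 3 times was above PBS once by 0.65 ± 0.16 on the log2 scale (adjusted p = 0.210). The call was lost in each of the 6 fits that left out a library (adjusted p up to 0.116, edgeR). The 4 T cell markers, given here because Ctsw is known from such cells, were lower too, with a sum of 0.593, 1.87 and 2.42 CPM at the lowest, median and highest PBS 3 times library and of 0.0328, 0.422 and 0.487 after 5-FU 3 times. Their part in the result was not tested.

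The members that rose were Atp6v0a2 and Atg3. Atp6v0a2, an a subunit of the V0 part found at the Golgi and endosomes (chr5:124628576-124724455, plus strand), was at 29.8, 32.9 and 29.8 CPM in PBS 3 times HSCs and 42.0, 43.1 and 47.0 after 5-FU 3 times, a log2 fold change of 0.51 ± 0.09 (adjusted p = 0.00956, edgeR). After a single administration it was at 38.7, 44.6 and 41.8 CPM against 34.6, 36.5 and 37.0, and PBS 3 times was the lowest of the 7 groups. Of its exonic bases, 9.86% are shared with 4930404A12Rik on the opposite strand. Atg3, which transfers the ubiquitin-like proteins to lipid (chr16:45158785-45188538, plus strand), was at 75.1, 64.3 and 63.6 CPM against 86.0, 93.5 and 83.2, a log2 fold change of 0.37 ± 0.10 (adjusted p = 0.0402, edgeR). The call was lost without a normalization factor (adjusted p = 0.117, edgeR) and with the replicate block. Leaving out PBS 3 times replicate 2 or 3 or any 5-FU replicate lost it as well (adjusted p up to 0.112, edgeR). Atp6v0c was again higher without overlap (581, 503 and 561 against 684, 647 and 647 CPM) at a log2 fold change of 0.26 ± 0.08, which missed the threshold (adjusted p = 0.0522, edgeR). It passed in DESeq2 (adjusted p = 0.00472) and with all 21 libraries in one fit (adjusted p = 0.0153). The same 2 alternatives called Lamp1 higher (adjusted p = 0.0280 in DESeq2 and 0.0472 in the one fit). They called Ctso lower (adjusted p = 0.0450 in DESeq2 and 0.0180 in the one fit).

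The autophagy genes that fell after a single administration did not pass the edgeR test after 3. Atg13 was at 312, 279 and 266 CPM in PBS 3 times HSCs and at 263, 277 and 269 after 5-FU, Atg7 at 160, 197 and 189 against 157, 141 and 193, Atg2a at 41.5, 34.0 and 34.5 against 28.4, 32.1 and 36.3, and Atg4d at 21.4, 21.1 and 22.7 against 22.7, 24.04 and 21.4. Of these, Atg14 alone did not overlap (24.7, 23.99 and 25.4 against 21.1, 13.97 and 18.3), at −0.48 ± 0.15 on the log2 scale and an adjusted p of 0.0694 (edgeR). It passed in DESeq2 (adjusted p = 0.0482) and with all 21 libraries in one fit (adjusted p = 0.00642). Cathepsin S (Ctss) was at 10.6, 17.8 and 13.2 CPM against 19.5, 16.5 and 16.4, which overlap.

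Whether the response differed between the first and the third administration was tested with an interaction over the 12 libraries. None of 50 members passed, 0 against 0.65% of 13227 genes (86 genes), so the differences above are not shown by this test. At an unadjusted p under 0.05, 9 of the 50 members and 1954 of the 13227 genes were counted in edgeR. DESeq2 called 2 members and 692 of 15933 genes. These were Atg13, whose log2 fold change was higher after 3 administrations by 0.46 ± 0.11 on the log2 scale (edgeR adjusted p = 0.0816, DESeq2 adjusted p = 0.00494), and Ctss, whose fold change was lower by −0.95 ± 0.27 (edgeR adjusted p = 0.129, DESeq2 adjusted p = 0.0457). For Atg7 the difference was 0.55 ± 0.18 (adjusted p = 0.179, edgeR) and for Ctsh −1.12 ± 0.36 (adjusted p = 0.170, edgeR). The column names of the 6 libraries of a single PBS or 5-FU administration on day 6 carry an ending that the other 15 lack and that is not explained, and for the interaction it cannot be told apart from the number of administrations.

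**Figure D4:**
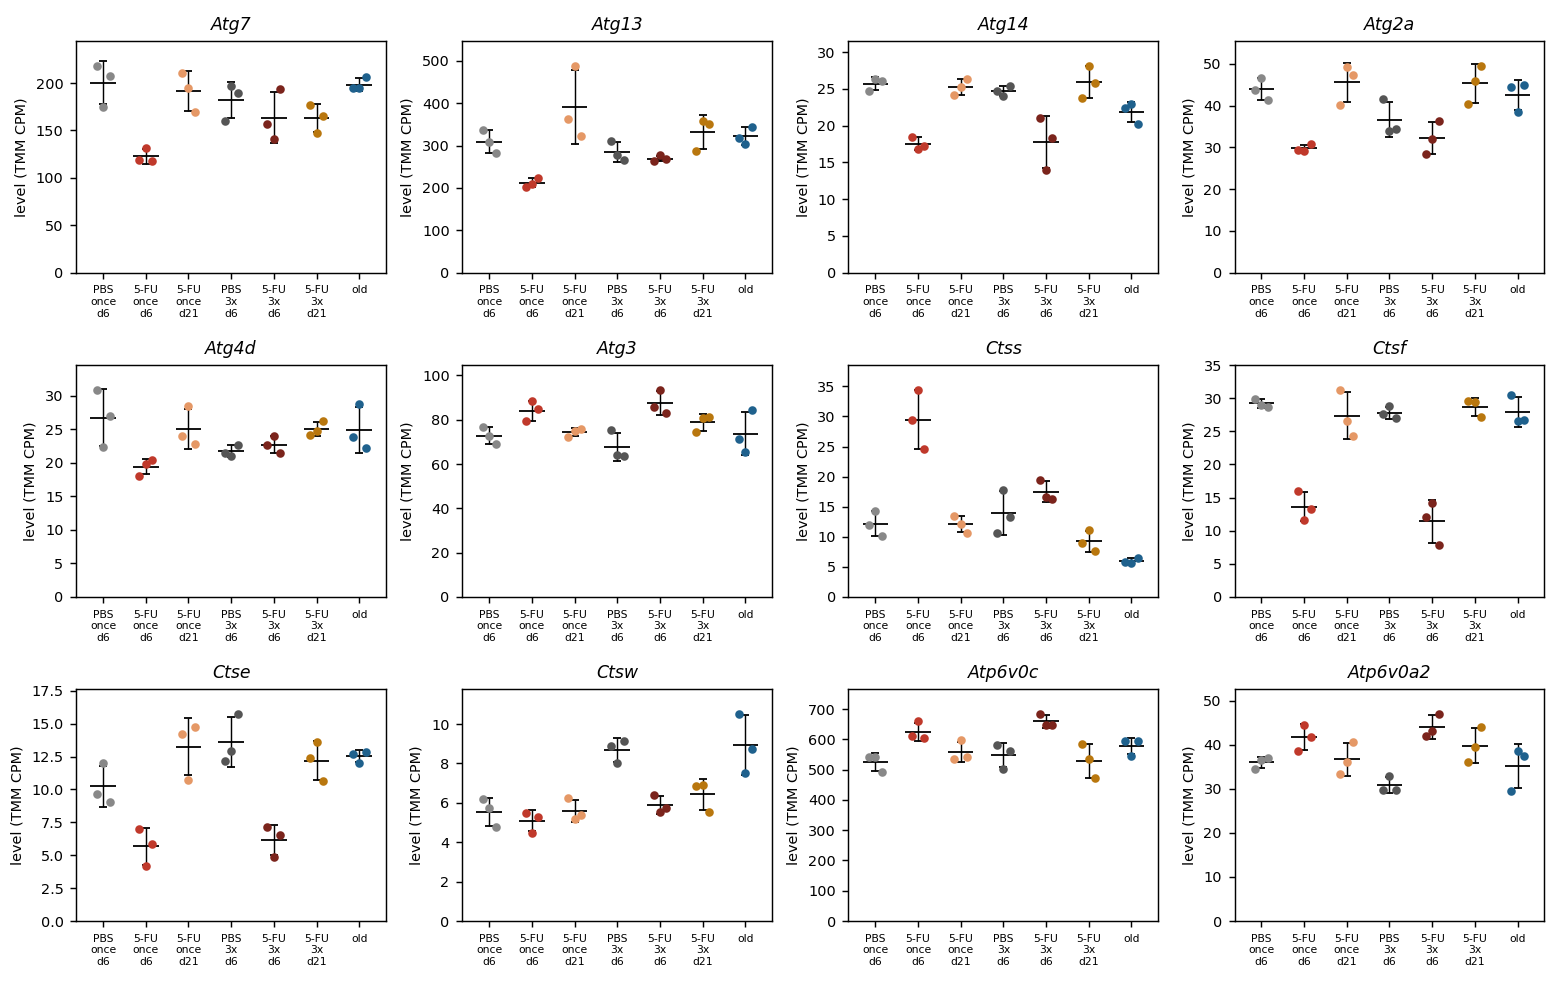
Level of the 12 members that passed the threshold in a comparison, in TMM CPM, for each of 3 libraries in 7 groups (axes start at 0). Points are libraries, lines are means and bars are SD. Atg7, Atg13, Atg14, Atg2a and Atg4d are lower on day 6 after 5-FU once than in PBS once HSCs, Ctsf and Ctse are low in both groups of day 6 after 5-FU, and Ctss ranges from 5.59 to 6.47 CPM in old HSCs to 24.6 to 34.5 on day 6 after 5-FU once.

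On day 21 no member passed the test against PBS. After 5-FU once, 0 of 49 members passed in edgeR against 0.221% of 12647 genes, with 4 at an unadjusted p under 0.05 (1685 of all genes) and 0 called by DESeq2 (726 of 15207 genes). After 5-FU 3 times, 0 of 49 passed against 0.0475% of 12632 genes, with 8 at an unadjusted p under 0.05 (1725 of all genes) and 1 called by DESeq2 (573 of 15042 genes), the sparse Atp6v0e2. Ctsf was back at 31.3, 26.5 and 24.3 CPM after 5-FU once and at 29.6, 29.4 and 27.1 after 3 times, and Ctse at 14.2, 10.8 and 14.8 and at 12.4, 13.6 and 10.7. Atg7 stood at 211, 195 and 169 CPM on day 21 after 5-FU once, Atg13 at 364, 489 and 322, Atg14 at 24.2, 25.3 and 26.4 and Atg2a at 40.3, 49.1 and 47.2, all overlapping with PBS once. The PBS libraries of this comparison were of day 6. With PBS 3 times as the control of day 21 after 5-FU once, whose column names lack the ending, 0 members were called as well. The highest day 21 values after 3 administrations relative to PBS 3 times were those of Atg16l1, at 81.2, 81.6 and 130 CPM against 80.8, 56.6 and 63.9 (log2 fold change 0.54 ± 0.22, adjusted p = 0.351, edgeR), and the lowest those of Ctss, at 9, 11.1 and 7.6 against 10.6, 17.8 and 13.2 (−0.59 ± 0.23, adjusted p = 0.328, edgeR).

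Old HSCs were compared with PBS 3 times HSCs. Cathepsin S was the member that passed, 1 of 49 tested (2.04%), against 0.996% of 12847 genes, of which 0.444% were lower. It was at 5.82, 5.59 and 6.47 CPM in old HSCs, the lowest of all groups and below each of the other 18 libraries, and at 10.6, 17.8 and 13.2 in PBS 3 times HSCs, a log2 fold change of −1.22 ± 0.21 (adjusted p = 0.0487, edgeR). The call held against PBS once, and was lost when any single library of 5 was left out (adjusted p up to 0.189), namely PBS 3 times replicates 2 and 3 and each old replicate. In old HSCs the macrophage markers summed to 62.6, 68.6 and 100.5 CPM at the lowest, median and highest library, against 58.1, 60.2 and 67.3 in PBS 3 times HSCs. Group means of Ctss thus ran over a 4.95-fold range, from old HSCs to day 6 after 5-FU once, the widest of any member above 1 CPM in every group, with Ctsf next at 2.57-fold and Ctse at 2.40-fold. At the other end, the group means of Atp6v1c1 and Atp6v1b2 lay within 1.04-fold and 1.08-fold.

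The proton pump and autophagy genes of old HSCs did not pass. Their median log2 fold changes were 0.01 and 0.06, that of the cathepsins was 0.00 and that of the LAMP pair 0.08, against −0.001 over all genes. Lamp2 was at 210, 218 and 215 CPM in old HSCs, the highest group mean, and at 199, 223 and 199 in PBS 3 times HSCs. Between the control groups, PBS 3 times against PBS once, 0 of 49 members passed in edgeR against 0.0156% of 12806 genes, with 6 at an unadjusted p under 0.05 (1633 of all genes), and DESeq2 called 3 (531 of 15248 genes): Lamp2 (199, 223 and 199 against 178, 173 and 161 CPM) and Atp6v0e2 were higher and Atg16l1 (80.8, 56.6 and 63.9 against 114, 99.6 and 92.2) lower after 3 administrations. The ending of the column names cannot be told apart from this comparison.

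Genes of the same pathways that the symbol rule leaves out were examined in 5 lists. Among 34 autophagy genes without an Atg symbol, 1 rose and 8 fell on day 6 after 5-FU once and 0 rose and 9 fell after 5-FU 3 times, with medians of −0.18 and −0.19, where 10.6% and 8.3% of all genes fell. Ulk1, the kinase that starts autophagy with Atg13, was at 149, 163.5 and 142 CPM in PBS once HSCs and 104, 91.0 and 88.9 after 5-FU once, a log2 fold change of −0.67 ± 0.09 (adjusted p = 0.00379, edgeR). After 3 administrations it was at 132, 129 and 143 against 104, 87.2 and 101 CPM (−0.48 ± 0.09, adjusted p = 0.0170, edgeR). The cargo receptor Optn was lower in both (−1.32 ± 0.28 and −1.51 ± 0.29, adjusted p = 0.0168 and 0.0159, edgeR), as were Zfyve1 (−0.64 ± 0.09 and −0.47 ± 0.10, adjusted p = 0.00495 and 0.0223, edgeR), a protein of the membranes where autophagosomes form, and Pink1, a kinase of mitophagy. Calcoco1 fell after a single administration (−0.68 ± 0.08, adjusted p = 0.00272, edgeR), and Map1lc3b, the LC3 protein that Atg7 and Atg3 attach to lipid, fell after 3, from 385, 381 and 406 CPM to 309, 277 and 246 (−0.50 ± 0.09, adjusted p = 0.0148, edgeR). Vmp1, a membrane scramblase, was the gene that rose (0.47 ± 0.13, adjusted p = 0.0420, edgeR).

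Among 42 other lysosomal enzymes and membrane proteins, 4 rose and 3 fell after 5-FU once and 1 rose and 5 fell after 3 times, where 22.2% and 18.1% of all genes were called. Gusb, the beta-glucuronidase, rose in both, from 225, 216 and 202 CPM to 294, 316 and 298 after 5-FU once (0.51 ± 0.07, adjusted p = 0.00375, edgeR) and from 210.5, 185 and 206 to 268, 287 and 294 after 3 times (0.50 ± 0.08, adjusted p = 0.00867, edgeR). Lgmn, the asparaginyl endopeptidase that cleaves cathepsin precursors, rose after 5-FU once from 3.16, 0.978 and 1.21 CPM to 7.46, 10.0 and 6.33 (2.16 ± 0.47, adjusted p = 0.0188, edgeR). The tetraspanin Cd63 passed the interaction (−0.55 ± 0.09, adjusted p = 0.0242, edgeR): it was at 442, 412 and 448 CPM against 425, 447 and 422 after 5-FU once, and at 564, 533 and 552 against 390, 390 and 340 after 3 times. Igf2r, the receptor that carries mannose 6-phosphate enzymes to the lysosome, was the gene of the list that passed on day 21 after 5-FU once, at 5.84, 6.51 and 5.43 CPM against 15.9, 13.8 and 16.2 (−1.37 ± 0.14, adjusted p = 0.0169, edgeR). It also fell on day 6 after 5-FU 3 times (−0.85 ± 0.18, adjusted p = 0.0202, edgeR). On day 6 after 5-FU once (−0.53 ± 0.18, adjusted p = 0.0711, edgeR) and on day 21 after 3 times (−1.14 ± 0.35, adjusted p = 0.250, edgeR) it missed the threshold.

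Among 11 pump assembly genes and pump genes with other symbols, 1 rose and 1 fell after 5-FU once and 2 rose after 3 times, beside the same 22.2% and 18.1% of all genes. Ncoa7, which binds the V1 part, rose in both (0.59 ± 0.09 and 0.32 ± 0.07, adjusted p = 0.00580 and 0.0263, edgeR), and Dmxl1, an assembly factor, fell after a single administration (−0.44 ± 0.13, adjusted p = 0.0493, edgeR). Wdr7, a partner of Dmxl1, was higher after 5-FU 3 times (0.90 ± 0.22, adjusted p = 0.0340, edgeR) and in old HSCs (0.99 ± 0.15, adjusted p = 0.0282, edgeR), both against the same PBS 3 times libraries, where it was at 26.1, 25.5 and 18.5 CPM. In PBS once HSCs it was at 36.99, 44.5 and 37.8 CPM. PBS 3 times was lower by −0.76 ± 0.15 on the log2 scale (adjusted p = 0.156, edgeR). Oxr1, a relative of Ncoa7, was at 1183, 1114 and 1027 CPM in old HSCs and at 699, 819 and 765 in PBS 3 times HSCs (0.54 ± 0.08, adjusted p = 0.0301, edgeR). Tcirg1, the a3 subunit, did not pass in any comparison, with an adjusted p of 0.174 or more (edgeR).

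Of 8 MiT/TFE factors and partners, 0 rose and 1 fell after 5-FU once and 0 rose and 2 fell after 3 times, again beside 22.2% and 18.1% of all genes called. Flcn, a regulator of Tfeb and Tfe3 at the lysosome, fell in both (−0.27 ± 0.07 and −0.28 ± 0.08, adjusted p = 0.0307 and 0.0496, edgeR) and its partner Fnip1 after 3 times (−0.81 ± 0.18, adjusted p = 0.0236, edgeR). Tfeb itself was at 39.2, 36.5 and 42.0 CPM against 38.5, 50.7 and 46.0 after 5-FU once. Of 5 cathepsin inhibitors, 1 fell after 5-FU once, the sparse Cst7, at 0.744, 0.602 and 0.603 CPM against 0.0417, 0 and 0.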

How the data were processed

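RNA was sequenced in 21 libraries of sorted HSCs, 3 for each of 7 groups taken from the sample labels. The authors aligned reads to mm10 with TopHat2 2.0.13, used Cuffdiff (Cufflinks 2.2.1), and the deposited table holds raw counts, as whole numbers, for each gene symbol. The step that made whole numbers is not given in the sources used here, and counting by strand is not stated. Counts were analysed in R 4.3.3 with edgeR 4.0.16: filterByExpr, TMM factors, and the quasi-likelihood test of each comparison on its own groups, with Benjamini-Hochberg adjustment over all genes kept and a threshold of 0.05. Standard errors are the fold change divided by the root of F. Positions and lengths are from GENCODE vM21 and transcript numbers from RefSeq. The code was tested on simulated data. Replicate numbers did not pair libraries: deviations of same-numbered libraries correlated at −0.06 to 0.04 over 27 pairs.

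Members and lists were chosen with earlier results of these data known. Named members are up to 6 of each family and direction with the smallest adjusted p in each comparison, and a fixed list of 24 genes of the pump, cathepsins, LAMP and autophagy. The other lists are the autophagy genes without an Atg symbol, other lysosomal proteins, pump assembly genes, MiT/TFE factors, cathepsin inhibitors and cell type markers; up to 4 genes of each are named, and genes beyond these rules were chosen after their values were seen. Alternatives were other size factors, DESeq2 1.42.0, other count filters (at least 1, or at least 10 in every library), a replicate block, all 21 libraries in one fit, another control and fits without single libraries. A fit of genes with 1 and with several transcripts apart was added after seeing the data.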

Additional observations from a re-analysis of the deposited data

How the results depend on the processing

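On day 6 after 5-FU once, where 9 members passed, the alternatives gave 8 to 11 members and the fits without single libraries 6 to 8. Over all genes the main fit called 2827 of 12759, DESeq2 3548 of 15296 and the replicate block 2041 of 12759. The fits without single libraries called 1563 to 1947 genes. After 5-FU 3 times, where 5 passed, DESeq2 gave 9, all 21 libraries in one fit 9, the genes of 1 and of several RefSeq transcripts fitted apart 8, and the fits without single libraries 3 to 6 (3 without PBS replicate 2 or 3 or 5-FU replicate 2 or 3). Counts over all genes rose as well: the main fit called 2310 of 12729, DESeq2 3291 of 15272 and the one fit 2944 of 13571. The classes fitted apart gave 2685 of 12745, the replicate block 1509 of 12729 and the fits without single libraries 1231 to 1582. With the replicate block, which pairs libraries that share only a number, 3 were called after 5-FU 3 times, 0 in old HSCs and 8 after 5-FU once; it changed no other count. In old HSCs, where 1 passed, the count was 0 with RLE size factors, 2 with DESeq2, 0 with the transcript classes fitted apart, and 0 to 1 without single libraries. There RLE called 124 of all 12847 genes, and the fits without single libraries 20 to 76. DESeq2 called 2 members in the interaction, 1 on day 21 after 5-FU 3 times and 3 between the PBS groups, where edgeR called 0. The cause was not tested.

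Of the 15 called fold changes none reversed. Those of Ctsf, Ctss, Atg7, Atg13, Atg14 and Atg2a after 5-FU once and of Ctsf, Ctse and Atp6v0a2 after 3 times kept their calls under all alternatives run. Atg4d, Atp6v0c and Ctse after 5-FU once and Atg3 and Ctsw after 3 times lost theirs when single libraries were left out. Without a normalization factor the median of all genes moved from −0.01 to −0.11 after 5-FU 3 times. Over all genes, edgeR and DESeq2 called 86 and 692 in the interaction, 28 and 726 on day 21 after 5-FU once, 6 and 573 on day 21 after 5-FU 3 times, 128 and 557 in old HSCs and 2 and 531 between the PBS groups. All 21 libraries in one fit gave 257, 185 and 19 on day 21 after 5-FU once, on day 21 after 3 times and between the PBS groups, and the replicate block 55, 3, 0, 30 and 0 in the 5 comparisons in the order above. Fitted apart by transcript class they gave 186, 95, 22, 186 and 12, and without a normalization factor 83 on day 21 after 5-FU once and 15 after 3 times, where RLE gave 3 and the filter of 10 counts 23.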
